A study of Mus musculus with 9 samples.

Results

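The mRNAs described here are encoded by the mitochondrial genome of the mouse. They were chosen by gene symbol, as mt-Nd1, mt-Nd2, mt-Nd4, mt-Nd5, mt-Nd6, mt-Co1, mt-Co2, mt-Co3, mt-Atp6 and mt-Cytb, which are 10 of the 22036 annotated genes in the table of counts. All 10 were among the 14160 genes that passed the filter on low counts. The table held all 13 mitochondrially encoded mRNAs, and it held 0 of the 2 mitochondrial rRNAs and 0 of the 22 mitochondrial tRNAs.

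Bulk mRNA sequencing was done on the left ventricle of wild-type mice, with 3 biological replicates a group. Mice labelled ND+AAV-CON, called ND controls here, received the diet labelled ND and a control vector. Mice labelled HFD+AAV-CON, the HFD controls, received the same control vector and the diet labelled HFD, the usual short form for a high-fat diet. Mice labelled HFD+AAV-BCKDK, the BCKDK group, received the HFD diet and a vector named for BCKDK. The series asks whether BCKDK, the kinase that switches off the breakdown of branched-chain keto acids in mitochondria, changes the remodelling of the heart in obesity. All 3 groups carried an AAV (adeno-associated virus) vector, so no group shows the heart without one. Not given in the sources used here were the promoter and dose of the vector, the length of the diet, and the age and sex of the mice.

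The mitochondrial genome is a small circular DNA that each cell holds in many copies. Both of its strands are transcribed as long precursors, which are cut into separate RNAs mostly at the tRNAs that lie between the mRNAs, so that the mRNAs of a strand start from shared transcripts and come to differ through processing and stability. Its mRNAs encode core membrane subunits of NADH dehydrogenase (complex I), the cytochrome bc1 complex (complex III), cytochrome c oxidase (complex IV) and ATP synthase (complex V), and all other subunits of these complexes come from nuclear genes. Heart muscle is dense in mitochondria, and these mRNAs are among the most abundant in cardiac tissue.

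Of the 10 mRNAs, 9 are encoded on the plus strand of the GRCm38 (mm10) mitochondrial chromosome and 1, mt-Nd6, on the minus strand, by the GENCODE M21 annotation. Their genes have no introns and run from 519 bases for mt-Nd6 to 1824 bases for mt-Nd5. In 3 of them, mt-Co3, mt-Nd4 and mt-Cytb, the gene ends on a single T past its last full codon, a stop codon that is completed only when the poly(A) tail is added. Their 3′ ends are shown beside that of mt-Co1, which carries a full stop codon, with the bases of the whole or partial stop codon in capitals.
mt-Co1, chrM:6849-6872, plus strand: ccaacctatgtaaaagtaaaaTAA
mt-Co3, chrM:9367-9390, plus strand: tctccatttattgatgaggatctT
mt-Nd4, chrM:11521-11544, plus strand: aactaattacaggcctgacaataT
mt-Cytb, chrM:15265-15288, plus strand: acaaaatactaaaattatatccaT

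Neighbouring genes overlap in this genome, which bears on how reads are assigned to them. The gene of mt-Atp8, which is outside the 10, shares its last 43 bases with the start of mt-Atp6, and the shared stretch is shown with the start codon of mt-Atp6 and the stop codon of mt-Atp8 in capitals. The genes of mt-Nd5 and mt-Nd6 face each other and share 14 bases, shown once as read on each strand, with each gene's own stop codon in capitals. Whether the counting used strand is not given in the sources used here, so reads from mt-Nd6 cannot be told apart from reads of the opposite strand over the same bases. Nuclear copies of mitochondrial sequence can also share reads with these genes, and how such reads were counted is not given either.
mt-Atp8 and mt-Atp6, chrM:7927-7969, plus strand: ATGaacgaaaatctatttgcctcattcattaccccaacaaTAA
mt-Nd5, chrM:13552-13565, plus strand: ttaatctcgagTAA
mt-Nd6, chrM:13552-13565, minus strand: ttactcgagatTAA

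Annotated genes received between 32803233 and 45483044 counts per library. The vector's gene followed the labels: Bckdk stood at 78.6, 70.3 and 70.6 CPM (depth-scaled counts, with TMM factors) in the ND controls, at 37.1, 65.0 and 49.4 in the HFD controls and at 111, 126 and 120 in the BCKDK group. HFD control replicate 3 stood apart. Over 9699 genes with more than 2000 counts in all, its level lay between those of replicates 1 and 2 in 83.0%, and no library of the other groups did so in more than 36.3%. It also had 1.02% of its counts in loci without a gene name, against 4.75% to 6.01% in the other 8 libraries. In those 8, the most abundant such locus held 65.5% to 91.9% of the unnamed counts, and in HFD control replicate 3 it had 0 counts. Whether HFD control replicate 3 is independent of the other HFD control libraries was not tested, and results are therefore also given without it.

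The 10 mRNAs took a large and, in one group, variable share of each library. Of all annotated counts, they held 44.7%, 42.5% and 41.2% in the ND control libraries, 25.4%, 39.0% and 32.4% in the HFD controls and 44.3%, 46.5% and 44.0% in the BCKDK group. Every HFD control library lay below every library of the other groups. The group means were 42.8% ± 1.76 (SD, n = 3), 32.3% ± 6.78 and 44.9% ± 1.38. The share in HFD control replicate 3, 32.4%, was close to 32.2%, the mean of replicates 1 and 2. In bulk tissue a lower share cannot be split into fewer cells of a type, less of this RNA per cell, and more RNA from other cells.

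**Figure D1:**
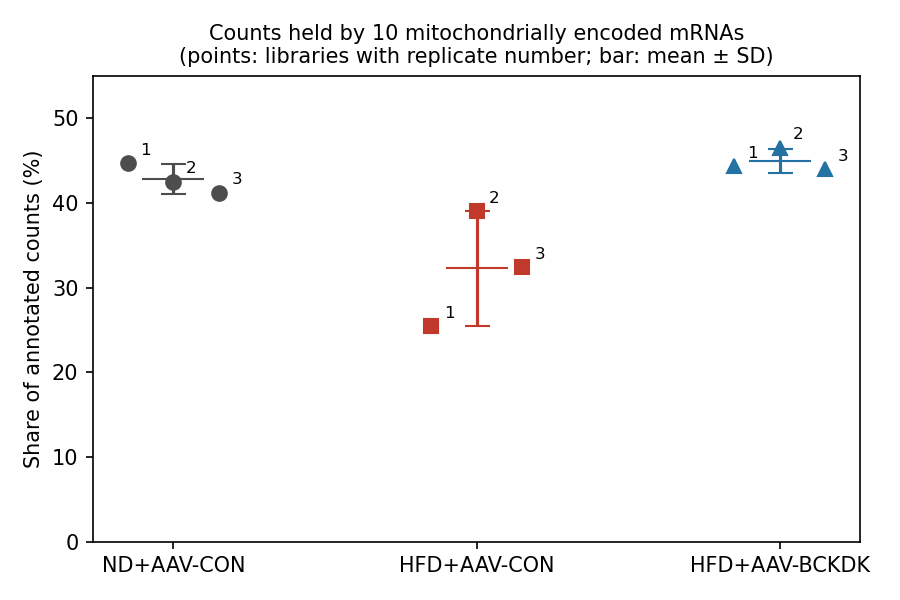
Share of annotated counts (%) held by the 10 mitochondrially encoded mRNAs in each library, with replicate numbers; bars give the mean ± SD of 3 libraries. The HFD control libraries spread from 25.4% to 39.0%, below all 6 libraries of the other groups.

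Because these mRNAs fill so much of a library, the scaling between libraries sets the size of every difference. The main scaling was TMM, which holds the middle of the gene distribution level: the median log2 fold change of all genes tested was -0.00 for the HFD controls against the ND controls and -0.01 for the BCKDK group against the HFD controls. Scaling by the total count moved those medians to 0.40 and -0.47. With total counts, a rise in the share of the 10 mRNAs lowers the values of other genes, and a fall raises them. The shares of all genes called with total counts are therefore not independent of the 10. Values are with TMM unless total counts are named, and those with total counts are given for the 10 mRNAs together, for each of the 10 whose calls they changed, for most gene lists, and in the plot of fold changes. Fold changes come from the edgeR quasi-likelihood test, with p adjusted over all genes by the Benjamini-Hochberg method, and a gene is said to have risen or fallen when its adjusted p was under 0.05.

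Under HFD with the control vector, all 10 mRNAs had lower levels than in the ND controls, and 4 of them fell: mt-Nd1, mt-Nd5, mt-Nd6 and mt-Co3. Of all genes tested, 20.6% fell and 43.3% changed in either direction. The log2 fold changes of the 10 ranged from -1.04 to -0.59, with a median of -0.76. With total-count scaling 7 of 10 fell, all but mt-Nd2, mt-Atp6 and mt-Cytb, against 6.6% of all genes, and the values ranged from -0.69 to -0.24. Without HFD control replicate 3 the range was -1.02 to -0.56 and mt-Nd6 alone passed, against 12% of all genes that fell. At 1 of 10, that count was near the share of all genes. The mRNA mt-Nd6 was also the only call when any 1 ND control was left out. Both mt-Nd5 and mt-Nd6 passed without any 1 BCKDK library, and 10 of 10 without HFD control replicate 2. Shares of all genes called in these last fits are not given here, so their counts cannot be set against them. The HFD control levels lay wholly below those of the ND controls for 10 of 10 mRNAs with TMM, where 27.1% of all genes did, and for 8 of 10 with total counts, where 10.1% did.

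With the BCKDK vector under HFD, the levels were higher than in the HFD controls for all 10, and 8 rose, mt-Co1 and mt-Cytb being the others. Of all genes, 17.3% rose and 38.2% changed in either direction. The log2 fold changes ranged from 0.82 to 1.08, with a median of 0.91. With total-count scaling 10 of 10 rose, by 0.42 to 0.67, where 2.81% of all genes rose. Without HFD control replicate 3 the range was 0.81 to 1.08 and again mt-Nd6 alone passed, against 6.87% of all genes. That count was again near the share of all genes. Leaving out any 1 ND control left 2 or 3 calls, and any 1 BCKDK library 1 or 2. For these fits too the shares of all genes called are not given here. Groups did not overlap for 10 of 10 mRNAs with TMM, where 24% of all genes lay wholly higher, and for 10 of 10 with total counts, where 5.22% did. This comparison shares its HFD control libraries with the one before it, so the opposite signs of the 2 are not independent of each other.

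**Figure D2:**
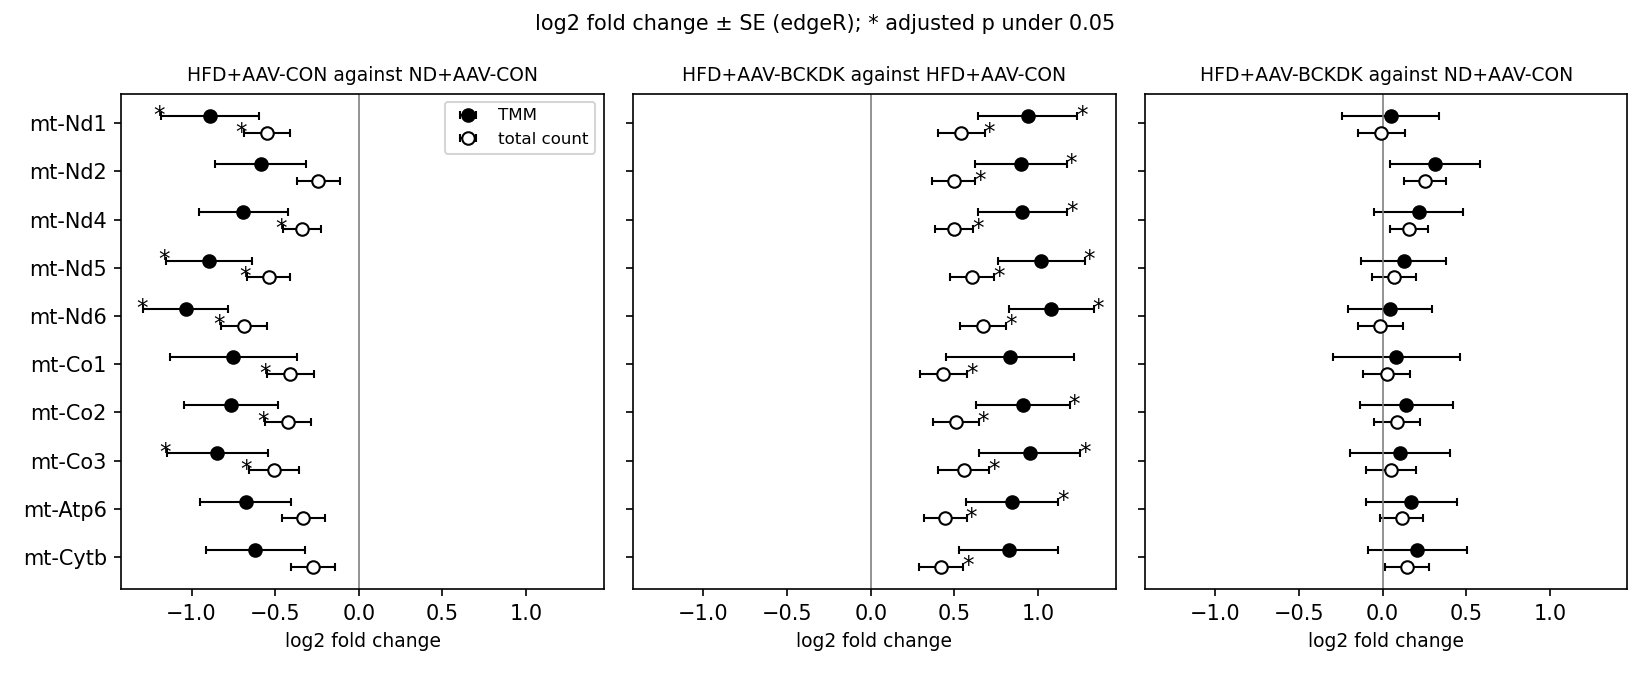
The log2 fold change ± SE of each mRNA in the 3 comparisons, with TMM scaling (filled) and total-count scaling (open); asterisks mark an adjusted p under 0.05 in the edgeR test. All points of the first panel lie below 0 and all of the second above 0, and total-count values are smaller in size throughout these panels.

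Of the 5 complex I mRNAs, mt-Nd6 had the largest difference of the 10 in both comparisons with the HFD controls. This gene encodes ND6, a hydrophobic subunit of the membrane arm, and is the only protein-coding gene on its strand. It stood at 13156, 10631 and 10556 CPM in the ND controls, at 3818, 7523 and 5416 in the HFD controls and at 11020, 13352 and 11054 in the BCKDK group. The HFD control libraries were the lowest 3 with no overlap. Under HFD with the control vector the log2 level of mt-Nd6 fell by 1.04 (SE 0.25, adjusted p = 0.0103), and with the BCKDK vector it rose by 1.08 (SE 0.25, adjusted p = 0.0115). It passed in all 21 alternative fits of both comparisons, with a largest adjusted p of 0.0431 in the first and 0.0437 in the second, but not at a threshold of 0.01. As the strand setting of the counting is not given, the counts of mt-Nd6 can include reads of the opposite strand.

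The mRNA of mt-Nd1, whose product sits where the membrane arm of complex I meets the quinone site, had the same order of groups. Its levels were 40358, 39205 and 35584 CPM in the ND controls, 13232, 28957 and 19943 in the HFD controls and 39740, 40493 and 38812 in the BCKDK group. The BCKDK libraries lay close together, near the top of the ND control range. It fell by 0.89 (SE 0.29, adjusted p = 0.0348) in the HFD controls and rose by 0.94 (SE 0.29, adjusted p = 0.0323) with the BCKDK vector. The adjusted p values were 0.0974 and 0.0900 once HFD control replicate 3 was left out.

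The gene of mt-Nd5 encodes one of the large proton-pumping subunits of complex I. It stood at 27103, 20600 and 21705 CPM in the ND controls, 8885, 16241 and 12209 in the HFD controls and 23280, 27994 and 24415 in the BCKDK group. The HFD control libraries were again the lowest 3. The changes were -0.89 (SE 0.26, adjusted p = 0.0208) and 1.02 (SE 0.26, adjusted p = 0.0156), and 0.0668 and 0.0531 were the adjusted p values without HFD control replicate 3.

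The other complex I members, mt-Nd2 and mt-Nd4, encode further proton-pumping subunits and, with TMM, passed with the BCKDK vector and not between the 2 control groups. For mt-Nd2 the levels were 27698, 25059 and 25830 CPM in the ND controls, 11603, 23864 and 16871 in the HFD controls and 32324, 34046 and 31184 in the BCKDK group. Its highest HFD control library came close to the lowest ND control library, and all BCKDK libraries lay above both other groups. The log2 fold change was -0.59 (SE 0.27, adjusted p = 0.106) under HFD with the control vector, and mt-Nd2 rose by 0.90 (SE 0.27, adjusted p = 0.0289) with the BCKDK vector. For mt-Nd4 the values were -0.69 (SE 0.27, adjusted p = 0.0602) and 0.91 (SE 0.27, adjusted p = 0.0261), from mean levels of 33985 ± 2645 CPM (SD, n = 3), 21037 ± 6638 and 39455 ± 1575 in the ND controls, the HFD controls and the BCKDK group, in that order. With total-count scaling mt-Nd4 also fell under HFD, by 0.34 (adjusted p = 0.0308).

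Complex III has a single mitochondrially encoded subunit, cytochrome b. Its mRNA, mt-Cytb, stood at 50146, 44850 and 42073 CPM in the ND controls, 19935, 40919 and 28416 in the HFD controls and 51975, 57749 and 48375 in the BCKDK group. HFD control replicate 2 was within a few percent of ND control replicate 3. Neither change of mt-Cytb passed with TMM, at -0.62 (SE 0.30, adjusted p = 0.118) and 0.82 (SE 0.30, adjusted p = 0.0531). With total-count scaling they were -0.27 (adjusted p = 0.109) and 0.42 (adjusted p = 0.0240), so the second passed.

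The complex IV mRNAs include the most abundant transcript of every library. The gene mt-Co1 encodes the catalytic subunit of cytochrome c oxidase, and it alone held 18.6%, 18.4% and 17.3% of annotated counts in the ND controls, 10.4%, 16.6% and 13.8% in the HFD controls and 18.4%, 19.0% and 17.8% in the BCKDK group. The HFD control libraries were the lowest 3. Its TMM log2 fold changes were -0.75 (SE 0.38, adjusted p = 0.137) and 0.83 (SE 0.38, adjusted p = 0.111), with the largest SE of the 10, and with total-count scaling they were -0.41 (adjusted p = 0.0356) and 0.43 (adjusted p = 0.0278). Thus mt-Co1 passed under total-count scaling and not under TMM.

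The mRNA of mt-Co3, a core subunit without metal centres, stood at 35788, 36948 and 32530 CPM in the ND controls, 12161, 27757 and 18651 in the HFD controls and 36999, 40756 and 35524 in the BCKDK group. It fell by 0.85 (SE 0.30, adjusted p = 0.0462) and rose by 0.95 (SE 0.30, adjusted p = 0.0339). On the 8 libraries without HFD control replicate 3 neither passed, at adjusted p values of 0.122 and 0.0938. The copper-binding subunit that receives electrons from cytochrome c is encoded by mt-Co2, which had means of 26171 ± 2550 CPM (SD, n = 3), 15388 ± 5686 and 28888 ± 1757 in the same order of groups. Its value was -0.77 (SE 0.28, adjusted p = 0.0506) under HFD, just outside the threshold, and it rose by 0.91 (SE 0.28, adjusted p = 0.0308) with the BCKDK vector. With total-count scaling mt-Co2 fell under HFD by 0.42 (adjusted p = 0.0280).

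ATP synthase takes its proton-channel subunit a from mt-Atp6. This mRNA stood at 28323, 27330 and 25154 CPM in the ND controls, 11324, 23275 and 15948 in the HFD controls and 29454, 33061 and 28448 in the BCKDK group. The value for HFD was -0.68 (SE 0.27, adjusted p = 0.0714), and mt-Atp6 rose by 0.85 (SE 0.27, adjusted p = 0.0366) with the BCKDK vector. The lowest BCKDK library of mt-Atp6 lay just above the highest ND control library.

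The 3 mRNAs outside the chosen 10 are short genes of complex I and complex V. The largest difference of any mitochondrially encoded mRNA between the vectors was that of mt-Nd3, at 2554, 2891 and 2185 CPM in the ND controls, 753, 1935 and 1200 in the HFD controls and 3387, 3289 and 2676 in the BCKDK group. It fell by 0.97 (SE 0.30, adjusted p = 0.0253) and rose by 1.27 (SE 0.30, adjusted p = 0.0116). Both mt-Nd4l and mt-Atp8, which overlap mt-Nd4 and mt-Atp6, rose with the BCKDK vector, by 0.84 (adjusted p = 0.0151) and 0.75 (adjusted p = 0.0219). Their values for HFD, -0.50 (adjusted p = 0.0804) and -0.57 (adjusted p = 0.0528), did not pass. Of these 3, the fit without HFD control replicate 3 called 0 under HFD and 1, mt-Nd3, with the BCKDK vector.

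The BCKDK group was also compared with the ND controls, where diet and vector differ together. With TMM all 10 log2 fold changes were above 0, from 0.04 to 0.31, and 0 passed in the edgeR test, where 2.45% of all genes changed. None had an unadjusted p under 0.05, and the adjusted p values ran from 0.630 to 0.958. DESeq2 and limma-voom also called 0. With total-count scaling the range was -0.01 to 0.25 with 0 called, against 0.96% of all genes. For 3 of the 10, mt-Nd2, mt-Nd4 and mt-Atp6, the BCKDK libraries lay wholly above the ND controls under both scalings, where 12.6% of all genes did so with TMM and 8.06% with total counts. The furthest was mt-Nd2, at 0.31 (SE 0.27, adjusted p = 0.630), and fitted on these 2 groups alone mt-Nd2 passed (adjusted p = 0.0204). Shares of all genes called by DESeq2, by limma-voom and in the fit on these 2 groups are not given here, so those counts cannot be set against them.

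Replicates of the HFD controls differed from each other far more than those of the other groups. The coefficient of variation of the 10 mRNAs, on TMM CPM, was 29.6% to 40.1% in the HFD controls, 5.18% to 15.04% in the ND controls and 2.12% to 11.3% in the BCKDK group. Replicate 2 was above replicate 1 by 1.83 to 2.28 times, with a median of 2.06, and replicate 3 lay between them for 10 of 10 mRNAs. With total-count scaling the same ratio was 1.32 to 1.65. The edgeR fit uses 1 spread for all 3 groups, as does limma-voom, which called 8 of 10 and 10 of 10 in the comparisons with the HFD controls. With a variance for each group, an alternative added after the data were seen, limma-voom called 10 of 10 in both. The shares of all genes called in these limma-voom fits are not given here, so the counts cannot be set against them.

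Per kilobase of gene length, the levels of the 10 mRNAs fell into tiers that were alike in the ND controls and the BCKDK group. In the ND controls, mt-Co1 led with 126458 ± 7926 TMM CPM per kb (SD, n = 3), above all others without overlap. Next came mt-Co3 (44756), mt-Nd1 (40107), mt-Cytb (39938), mt-Atp6 (39553) and mt-Co2 (38262), neighbours whose ranges overlapped. A gap without overlap separated these from mt-Nd2 (25237), mt-Nd4 (24662) and mt-Nd6 (22058), and another from mt-Nd5 (12684), the longest and lowest. In the BCKDK group the order was mt-Co1, mt-Co3, mt-Cytb, mt-Atp6, mt-Co2, mt-Nd1, mt-Nd2, mt-Nd4, mt-Nd6 and mt-Nd5, with mt-Nd1 at 41465 and the 4 mRNAs after it each clear of their neighbours. In the HFD controls, mt-Cytb (26011) stood second and mt-Nd1 (21641) sixth, but all neighbours below mt-Co1 overlapped, and the level of mt-Co1 was 75185 ± 28733.

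**Figure D3:**
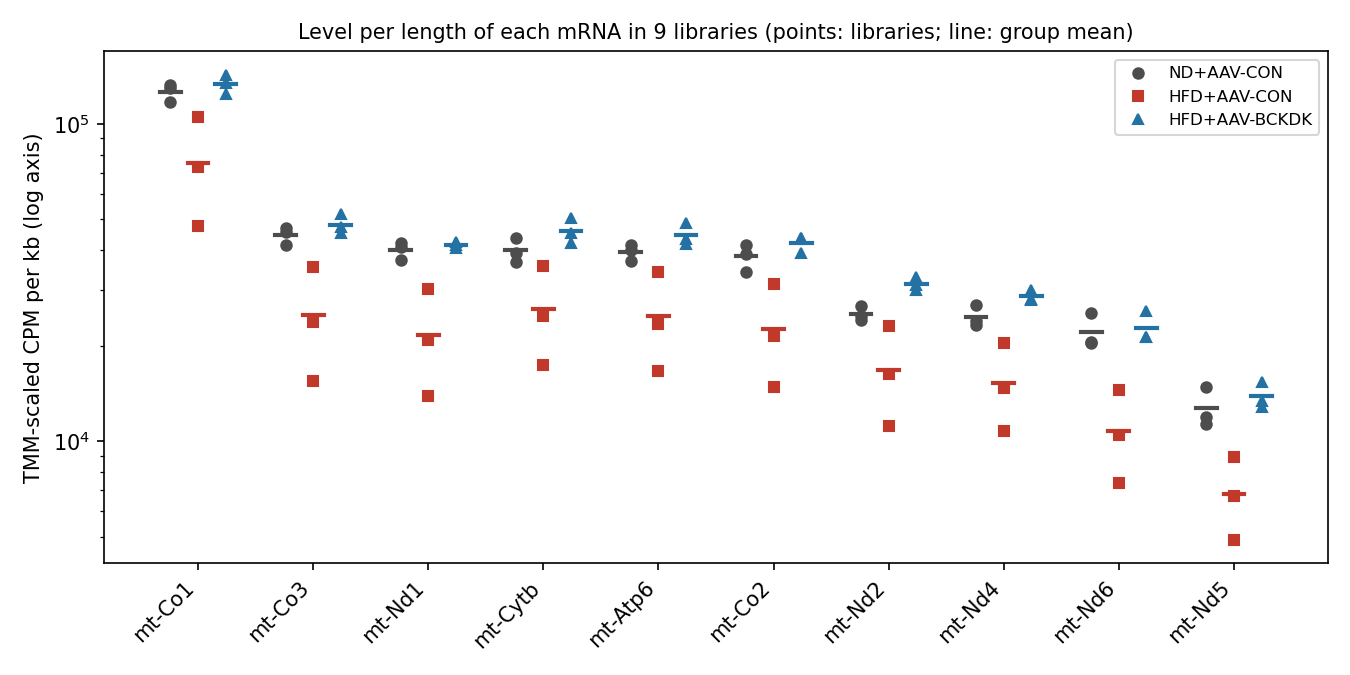
TMM-scaled CPM per kilobase of each mRNA on a log axis; points are libraries and lines group means, ordered by the ND control mean. In every group mt-Co1 is highest and mt-Nd5 lowest, and the red HFD control points lie below the others and spread widest.

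To ask whether single mRNAs moved apart from the rest, each was also fitted against the summed counts of the 10, which removes the scaling of nuclear genes. Relative to that sum, mt-Nd6 and mt-Nd1 fell and mt-Nd2 and mt-Cytb rose in the HFD controls against the ND controls, 4 of 10 in all. In this fit 60.6% of all genes tested changed, 59.7% upward and 0.925% downward, nearly all of them nuclear. Because the sum of the 10 is the denominator, a fall or rise of that sum moves other genes the opposite way. The shares of all genes called or lying apart on this scale therefore depend on the 10, and are no yardstick for a single mRNA. Within the sum, a lower share of some of the 10 goes with a higher share of others. The changes were small: -0.27 for mt-Nd6 (SE 0.08, adjusted p = 0.00959), -0.15 for mt-Nd1 (SE 0.04, adjusted p = 0.0145), 0.17 for mt-Nd2 (SE 0.05, adjusted p = 0.0126) and 0.14 for mt-Cytb (SE 0.04, adjusted p = 0.0112). All 4 also passed without HFD control replicate 3. Without ND control replicate 2 only mt-Nd6 did.

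The shares behind these values were as follows. Of the counts of the 10 mRNAs, mt-Nd6 held 2.67%, 2.29% and 2.45% in the ND controls, 2.13%, 1.98% and 2.04% in the HFD controls and 2.20%, 2.47% and 2.33% in the BCKDK group. The share of mt-Nd1 was 8.20%, 8.46% and 8.25%, then 7.37%, 7.62% and 7.53%, then 7.93%, 7.51% and 8.17%, so that for both mRNAs the HFD control libraries lay wholly below the ND controls, where 2.39% of all genes did. In contrast mt-Nd2 held 5.63%, 5.41% and 5.99% in the ND controls, 6.46%, 6.28% and 6.37% in the HFD controls and 6.45%, 6.31% and 6.57% in the BCKDK group, high in both HFD groups. The share of mt-Cytb was 10.2%, 9.67% and 9.75% in the ND controls, 11.1%, 10.8% and 10.7% in the HFD controls and 10.4%, 10.7% and 10.2% in the BCKDK group. The share of mt-Co1 stayed between 40.4% and 43.2% in all 9 libraries. Unlike the totals, these shares were close among the HFD control replicates.

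Between the vectors, mt-Nd6 alone of the 10 rose relative to their sum, by 0.19 (SE 0.08, adjusted p = 0.0380). On this scale 0.148% of all genes rose and 73.1% changed in either direction, shares that again depend on the sum of the 10. The call of mt-Nd6 was lost without HFD control replicate 3 and in 4 of the other 8 fits that left out a library. Among the 3 other mitochondrial mRNAs, mt-Nd3 rose by 0.42 (SE 0.12, adjusted p = 0.00866) on this scale. Between the BCKDK group and the ND controls 0 of 10 passed, against 0.113% of all genes, with 1 at an unadjusted p under 0.05. There mt-Nd2 was furthest, at 0.18 (SE 0.05, adjusted p = 0.337). In these fits the adjusted p of an mRNA depends on how many of all genes changed. The numbers of calls in the 3 comparisons therefore cannot be compared with each other. Base composition follows the strand: the GC skew of the 9 plus-strand genes lay between -0.553 and -0.192, meaning more C than G, and that of mt-Nd6 was 0.65. The minus-strand gene mt-Nd6 also had the most negative change in the HFD controls, but with 1 such gene the strand and the gene cannot be told apart. Whether the counts of mt-Nd6 come from that strand is not known either, as the strand setting is not given.

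**Figure D4:**
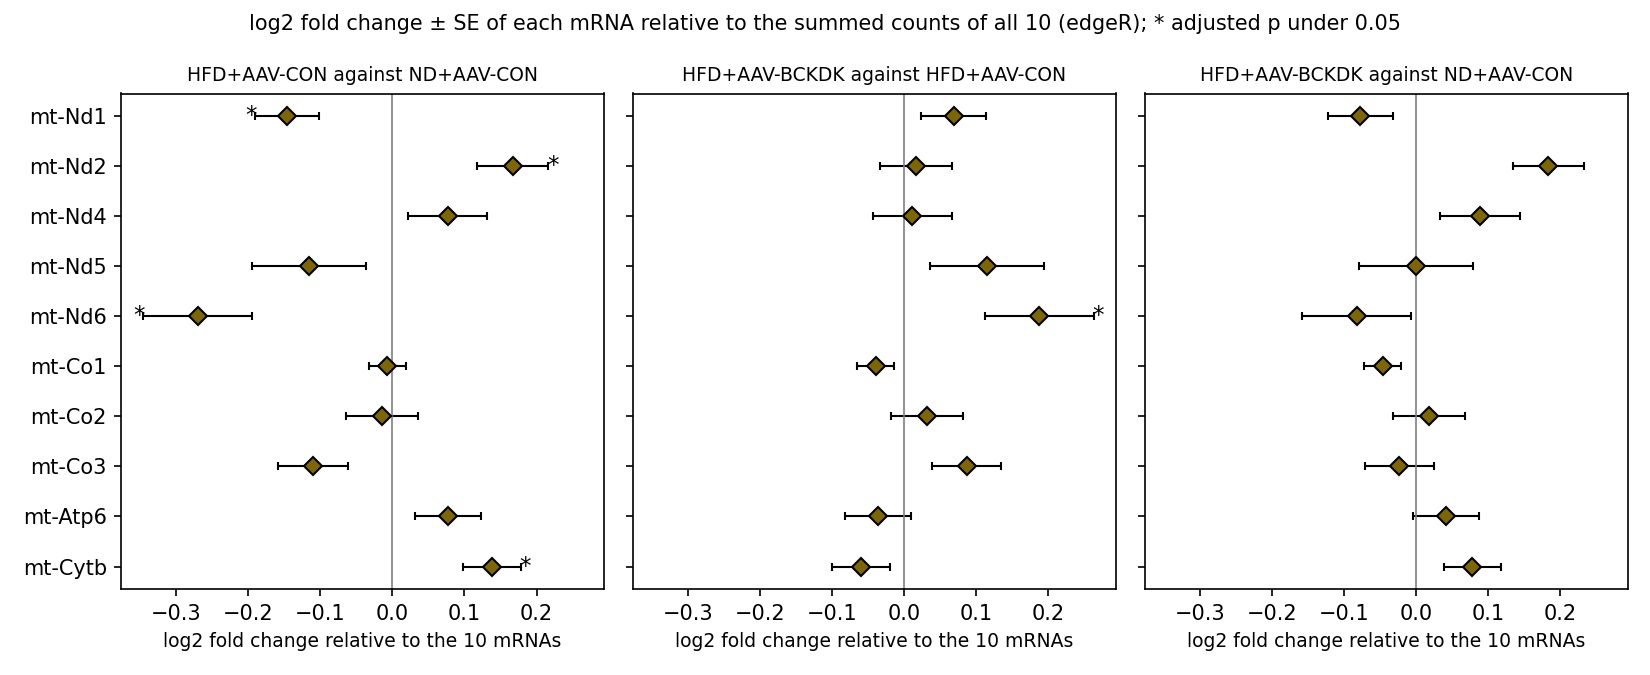
The log2 fold change ± SE of each mRNA relative to the summed counts of the 10, in the 3 comparisons; asterisks mark an adjusted p under 0.05 in the edgeR test. In the first panel mt-Nd1 and mt-Nd6 lie below 0 and mt-Nd2 and mt-Cytb above it, and in the second only mt-Nd6 is marked.

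The nuclear genes for the same complexes moved in the same directions as the mitochondrial ones. In the HFD controls against the ND controls, 34 of 36 nuclear complex I genes fell (median -0.78), with 4 of 4 of complex II (-0.70), 7 of 9 of complex III (-0.77), 11 of 12 of complex IV (-0.82) and 15 of 15 of complex V (-0.83). In the BCKDK group against the HFD controls, 34, 4, 9, 10 and 14 of these rose, with medians of 0.77, 0.74, 0.77, 0.83 and 0.73. Of all genes tested, 20.6% fell in the first comparison and 17.3% rose in the second. Examples were Ndufs1, the iron-sulphur subunit that carries electrons through complex I (-0.66, adjusted p = 0.0149, then 0.73, adjusted p = 0.0128), and Uqcrfs1, the Rieske protein of complex III (-0.77, adjusted p = 0.0161, then 0.77, adjusted p = 0.0194). Others were Cox7c of complex IV (-0.82, adjusted p = 0.0194, then 0.95, adjusted p = 0.0134) and Atp5f1 of complex V (-0.77, adjusted p = 0.00993, then 0.73, adjusted p = 0.0163). Between the BCKDK group and the ND controls 0 of these 76 genes passed, which is near the 2.45% of all genes that changed. With total-count scaling the numbers that fell were 22, 3, 5, 8 and 10, and those that rose were 13, 2, 3, 6 and 7, where 6.6% and 2.81% of all genes did so. When HFD control replicate 3 was left out, 8, 2, 1, 1 and 4 fell and 6, 0, 0, 2 and 0 rose, against 12% and 6.87% of all genes, while the medians for complex I were -0.75 and 0.75. In that fit the counts for complexes III and IV under HFD, 1 of 9 and 1 of 12, were near the share of all genes. With the BCKDK vector, the counts of 0 for complexes II, III and V did not exceed it.

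Counts of the 10 mRNAs per count of the 76 nuclear genes needed no scaling between libraries. This ratio was 13.6, 11.1 and 11.5 in the ND controls, 11.4, 12.3 and 12.3 in the HFD controls and 12.4, 14.4 and 13.4 in the BCKDK group. The HFD controls lay within the range of the ND controls, and the lowest BCKDK library lay just above the highest HFD control; the group means were 12.1 ± 1.35 (SD, n = 3), 11.99 ± 0.507 and 13.4 ± 0.981. Within complexes, the means in the same order were 14.2, 13.8 and 15.9 for complex I, 9.76, 10.6 and 11.3 for complex III, 40.7, 41.3 and 43.2 for complex IV, and 1.75, 1.82 and 2.04 for complex V. The HFD control replicates, whose mitochondrial totals differed most, had the smallest SD of this ratio among the groups.

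**Figure D5:**
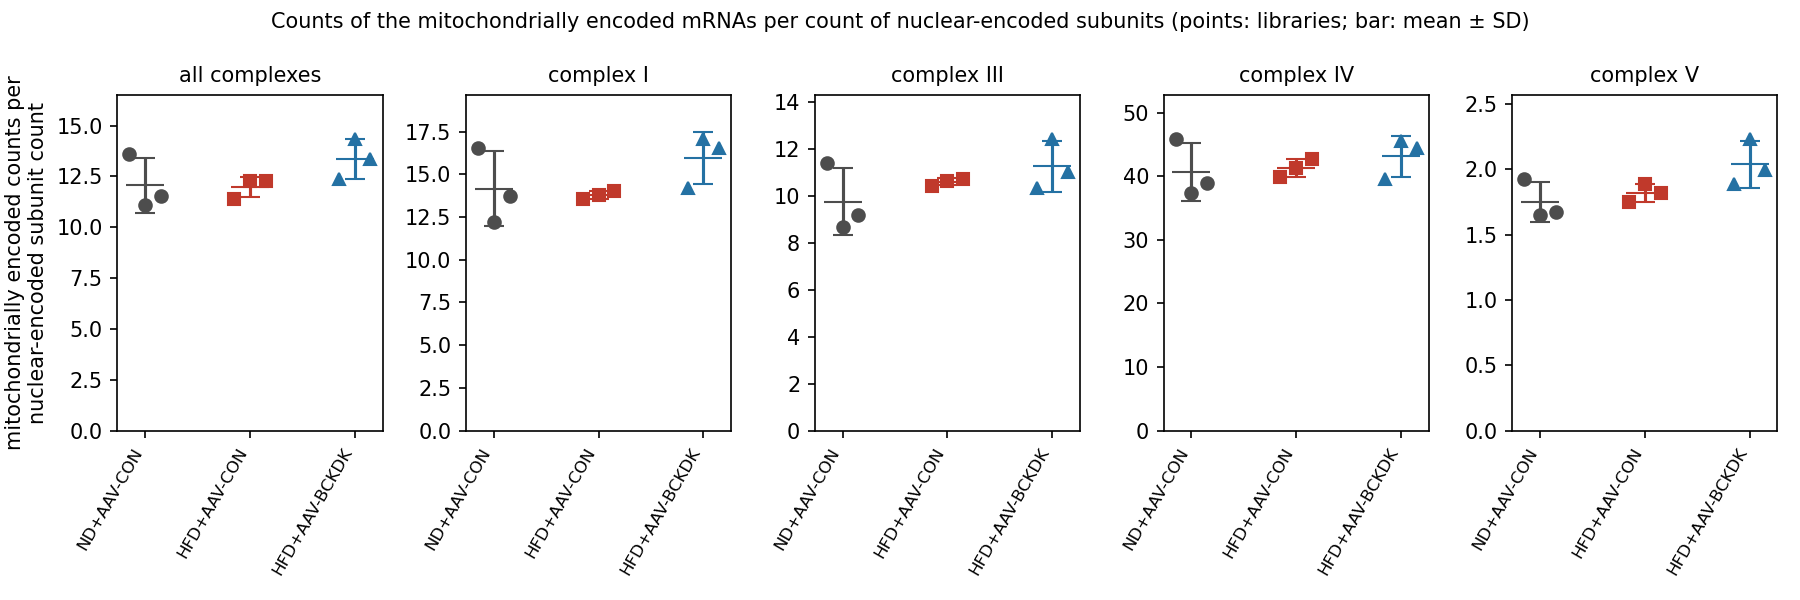
Counts of the mitochondrially encoded mRNAs per count of the nuclear-encoded subunit genes, over all complexes and within complexes I, III, IV and V; points are libraries and bars the mean ± SD of 3. The HFD control points (squares) lie close together, for all complexes between 11.4 and 12.3, within the range of the ND controls.

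Nuclear genes that maintain and express the mitochondrial genome were taken from lists chosen by function. Of 10 genes of mitochondrial transcription, 7 fell in the HFD controls (median -0.53) and 7 rose with the BCKDK vector (median 0.46), beside 20.6% and 17.3% of all genes. Among them Tfam, which packages the mitochondrial genome and starts its transcription, fell by 0.40 (SE 0.09, adjusted p = 0.00765) and rose by 0.47 (SE 0.09, adjusted p = 0.00565). Its partner at the promoter, Tfb2m, fell by 0.60 (adjusted p = 0.0109) and rose by 0.58 (adjusted p = 0.0163), and Mterf2, of the termination factor family, fell by 1.11 (adjusted p = 0.00235) and rose by 0.78 (adjusted p = 0.0140). With total-count scaling 1 of 10 fell (median -0.15) and 0 rose (median 0.02), beside 6.6% and 2.81% of all genes, so the counts of calls depended on the scaling. Leaving out HFD control replicate 3 gave 5 that fell and 3 that rose, beside 12% and 6.87%.

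Of 25 genes for processing and stability of mitochondrial RNA, 15 fell and 1 rose in the HFD controls (median -0.47), and 12 rose with the BCKDK vector (median 0.41), where 20.6% of all genes fell and 17.3% rose. With total counts 6 fell and 2 rose (of all genes, 6.6% and 42.3%), then 0 rose and 6 fell (2.81% and 48.5%), so that the calls of the second comparison were lower with total counts and higher with TMM, and a smaller part of the list than of all genes was lower. Grsf1, a protein of the RNA granules where transcripts are processed, fell by 0.69 (adjusted p = 0.00276) and rose by 0.58 (adjusted p = 0.00791) with TMM, and Fastkd1 by 0.54 (adjusted p = 0.00262) and 0.51 (adjusted p = 0.00487). The fit without HFD control replicate 3 had 12 that fell, and 4 that rose with the BCKDK vector, beside 12% and 6.87% of all genes.

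Of 13 factors that translate mitochondrial mRNAs, 9 fell (median -0.49) and 8 rose (median 0.43), beside 20.6% and 17.3% of all genes. They included the initiation factor Mtif3, at -0.62 (adjusted p = 0.00115) and 0.44 (adjusted p = 0.00600), and the elongation factor Gfm1, at -0.49 (adjusted p = 0.0184) and 0.51 (adjusted p = 0.0201). With total counts 4 fell and 0 rose (6.6% and 2.81% of all genes), and without HFD control replicate 3, 6 fell and 2 rose (12% and 6.87%).

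Of 13 genes for replication of the mitochondrial genome and its nucleotide supply, 4 fell, and with the BCKDK vector 3 rose and 1 fell. Of all genes, 20.6% fell in the first comparison, and 17.3% rose and 20.9% fell in the second. The riboreductase subunit Rrm2b fell by 0.41 (adjusted p = 0.00232) and rose by 0.44 (adjusted p = 0.00262), while the mitochondrial thymidine kinase Tk2 fell with the BCKDK vector by 0.46 (adjusted p = 0.0168). With total counts 5 of the 13 rose in the HFD controls (as did 42.3% of all genes) and 0 fell, and 2 fell with the BCKDK vector (as did 48.5% of all genes), the opposite direction to TMM. Of 7 regulators of mitochondrial biogenesis, 3 fell and 1 rose, and 3 rose and 1 fell with the BCKDK vector, Pprc1 being the one that went against the rest at 0.85 (adjusted p = 0.00142) and -0.46 (adjusted p = 0.0216). The estrogen-related receptor Esrrg stood at -0.75 (adjusted p = 0.00901) and 0.71 (adjusted p = 0.0145). For the regulators too the direction turned with total counts, to 2 higher and 1 lower and then 3 lower, where 42.3% of all genes were higher and 48.5% lower. With HFD control replicate 3 left out, the replication list gave 2 lower and then 2 higher, and the regulators 2 lower and 1 higher, then 1 higher. Of all genes in that fit, 12% were lower and 16.2% higher in the first comparison, and 6.87% higher in the second.

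Among markers of the cell types in heart tissue, those of cardiomyocytes moved in the same directions as the mitochondrial mRNAs. Of 10 cardiomyocyte markers 8 fell in the HFD controls and 7 rose with the BCKDK vector, beside 20.6% and 17.3% of all genes. With total counts 7 fell and 4 rose, beside 6.6% and 2.81%. Their summed level was 47604 to 50630 TMM CPM in the ND controls, 21970 to 38859 in the HFD controls and 42216 to 47075 in the BCKDK group. Without HFD control replicate 3, 2 fell and 0 rose, beside 12% and 6.87% of all genes. In that fit the counts of these markers were near the shares of all genes. Per count of these markers, the 10 mitochondrial mRNAs had 9.52 ± 0.716 counts (SD, n = 3) in the ND controls, 9.13 ± 0.848 in the HFD controls and 11.2 ± 0.470 in the BCKDK group, where all 3 libraries lay above the 6 others.

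Markers of immune cells and fibroblasts went the other way. Of 9 macrophage markers 9 rose in the HFD controls, as did 22.7% of all genes, and 9 fell with the BCKDK vector, as did 20.9%. They had sums of 320 to 448 CPM in the ND controls, 909.7 to 1455 in the HFD controls and 258 to 345 in the BCKDK group. Of 7 T and NK cell markers 6 rose and 7 fell, with sums of 2.16 to 35.6, 87.6 to 162 and 2.53 to 10.9 CPM. Of 8 fibroblast markers 6 rose and 7 fell, with sums of 1353 to 1432, 1777 to 3604 and 1207 to 1345 CPM. With total counts all 9 macrophage markers rose and all 9 fell, 6 and 7 of the T and NK cell markers did, and 8 and 7 of the fibroblast markers, where 42.3% of all genes rose and 48.5% fell. With HFD control replicate 3 left out, the macrophage counts were again 9 and 9, those of T and NK cells 4 and 6, and those of fibroblasts 4 and 3, where 16.2% of all genes rose and 13% fell.

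With TMM, endothelial and erythroid markers had calls in the same directions as the cardiomyocyte markers. Of 8 endothelial markers 6 fell and 7 rose, beside 20.6% and 17.3% of all genes, with sums of 778 to 897 CPM in the ND controls, 521 to 687 in the HFD controls and 795 to 908 in the BCKDK group. With total counts 3 endothelial markers fell and 1 rose in the HFD controls, where 6.6% and 42.3% of all genes did. On that scaling 1 rose with the BCKDK vector, where 2.81% of all genes rose. Without HFD control replicate 3, 5 fell and 3 rose, beside 12% and 6.87% of all genes. Of the 5 erythroid markers tested, of 7 chosen, 5 fell and 5 rose, beside the same 20.6% and 17.3% of all genes. Their sums were 1479 to 1656, 459.99 to 901 and 971 to 1567 CPM in the same order of groups. The 5 that rose became 2 with total counts and 1 without HFD control replicate 3, while all 5 fell in both of these fits. Of all genes, 2.81% and 6.87% rose with the BCKDK vector in these fits, and 6.6% and 12% fell in the HFD controls. Of 7 smooth muscle and pericyte markers 3 fell and 2 rose, beside 20.6% and 17.3% of all genes. Total-count scaling did not keep that direction, with 1 lower and 1 higher and then 3 lower. Of all genes, 6.6% were lower and 42.3% higher on that scaling, and then 48.5% lower. Without HFD control replicate 3, 3 of these 7 fell and 0 rose, beside 12% and 6.87% of all genes. Only 1 of 6 adipocyte markers, 3 of 7 skeletal muscle markers and 3 of 5 atrial markers passed the filter, and Lep and Myh1 were at 0 counts in all 9 libraries. Of the atrial list, the stress-responsive Nppa rose by 2.51 (adjusted p = 0.0104) and fell by 3.12 (adjusted p = 0.00635), while Myl4 and Myl7 passed in neither comparison. With the BCKDK vector the adipocyte marker Cfd rose by 3.40 (adjusted p = 0.0363). The skeletal muscle marker Tnnt3 fell by 2.99 (adjusted p = 0.0485). These 2 genes had only 190 and 308 counts over all libraries. The part of these cell types in the levels of the mitochondrial mRNAs was not tested.

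The 10 mRNAs followed each other closely across libraries. Pairwise Pearson correlations of their log2 CPM over the 9 libraries ran from 0.954 upward. The points share library scaling and the 3 groups. Among 3674 genes whose average log2 CPM was 5 or more, those most like the mean of the 10 included Anapc5 (r = 0.997), Yipf7 (0.995), Ndufs1 (0.995) and Fyco1 (0.995). Of these genes 934 had r over 0.9 and the median was 0.617 over all 3674.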

How the data were processed

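Left ventricular RNA from 9 mice was extracted with Trizol and made into libraries with a VAHTS mRNA-seq kit, per the labels' protocols. The authors deposited raw read counts per gene, with no normalization. HISAT2 2.0.5 and the build mm10 are named per the submitters' processing notes; not given in the sources used here are the counter, its annotation and its strand setting. More genes had a count of 2 than of 1 (303 against 74 in ND control replicate 1), so counts are not all independent molecules. Of 26178 entries, 4142 loci had no gene name and entered neither library sizes nor tests.

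Genes were filtered with filterByExpr, scaled with TMM and fitted with the quasi-likelihood test of edgeR 4.0.16 (R 4.3.3) on all 9 libraries, with 1 coefficient per group. P values were adjusted over 14160 genes by the Benjamini-Hochberg method, with a threshold of 0.05. The common biological coefficient of variation was 18.6%. SEs were taken from the F statistic. A second fit used the summed counts of the 10 mRNAs as library size. Alternatives were other scalings, filters and thresholds, DESeq2 1.42.0, limma-voom (limma 3.58.1), a replicate block, and leaving out each library. Scripts were tested on simulated data.

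The 10 mRNAs, all gene lists and the tests were chosen with earlier results of these data known, so no list is independent evidence. All mitochondrially encoded mRNAs are named, and of each other list up to 3 genes with the smallest p between the BCKDK group and the HFD controls, not all of which are printed. Sequences and positions are from GENCODE M21 (GRCm38).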

Additional observations from a re-analysis of the deposited data

How the results depend on the processing

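For the HFD controls against the ND controls, the number of the 10 mRNAs that fell was 4, and it became 7 with total-count scaling, 6 with upper-quartile factors, 5 with a filter at 1 CPM, 3 with unnamed loci kept, 10 with DESeq2, 8 with limma-voom, 10 with a variance per group, 1 with only these 2 groups fitted, 0 at a threshold of 0.01 and 7 at 0.1. Leaving out 1 library gave 1 to 10. For the BCKDK group against the HFD controls, 8 became 1 with only these 2 groups, 0 at 0.01, 9 with upper-quartile factors and 10 each with total-count scaling, DESeq2, limma-voom and a variance per group, and leaving out 1 library gave 1 to 10. For the BCKDK group against the ND controls, 0 became 1 with only these 2 groups and stayed 0 in all other settings run. None of the 10 changed sign in 21 settings in either comparison with the HFD controls. In the third comparison 2 did, mt-Nd1 and mt-Nd6. The cause of these differences was not tested. Shares of all genes called are given above only for TMM, total counts and the fit without HFD control replicate 3. For the other settings a count can reflect how many genes that setting calls in general.

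Relative to their own sum, leaving out 1 library gave 1 to 5 calls (4 with all libraries) for the first comparison, 0 to 1 for the second and 0 for the third. With all counts of the table as denominator, the share held by the 10 mRNAs was 40.4% in the ND controls, 31.1% in the HFD controls and 42.3% in the BCKDK group. Leaving out 1 library moved the mean share within 41.9% to 43.6% in the ND controls, 28.9% to 35.7% in the HFD controls and 44.1% to 45.4% in the BCKDK group.

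Same-numbered replicates did not deviate together more than others. Their correlations ran from -0.22 to 0.19, and those of differently numbered replicates from -0.28 to 0.30. The labels do not say whether the numbers pair the samples, and with 3 libraries a group these correlations cannot decide it. With a replicate block the calls were 4, 8 and 0 for the 3 comparisons, and 4, 0 and 0 relative to the own sum, where the call of mt-Nd6 between the vectors was lost. Each library held at least 11118221 counts of these mRNAs, and the widest spread was among the 3 HFD controls.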

Other observations

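The most abundant locus without a gene name followed the 10 mRNAs closely in 8 libraries. It was chosen after its values were seen, and its identity is not given in the table. Its count was 12.5% to 13.2% of the summed count of the 10 mRNAs in those libraries, from all 3 groups. In HFD control replicate 3 it had 0 counts. That library also had reads in 1142 of the 4142 unnamed loci, against 1800 to 2247 in the others.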
